A study of Mus musculus with 18 samples.

Results

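The genes described here make up the machinery that turns the sterol content of a cell into transcription. They comprise Srebf1, Srebf2, Scap, Insig1, Insig2, Mbtps1 and Mbtps2, together with Stard4, a carrier that moves sterol between membranes. All 8 genes were found by symbol among the 55487 genes of the count table, and all 8 passed the filter on low counts that left 17414 genes for testing. No receptor for the uptake of sterol is among them, so they are called the SREBP machinery and Stard4 below. Frontal cortex of 18 mice aged 9 to 10 months had been sequenced as stranded mRNA libraries, with 3 females and 3 males in each of 3 genotypes. The 6 APP/PS1 mice carried the transgenes of that model, which drive amyloid deposition, and were homozygous for the floxed β-subunit of farnesyltransferase (FT) without Cre. The 6 APP/PS1/FTnKO mice carried the same transgenes and floxed alleles together with Cre under the CamKIIα promoter, which deletes FT in forebrain neurons after birth, so that other cells of the tissue kept the gene. The 6 WT mice were FT f/f Cre- littermates by the methods of the study, although the deposited record calls them C57BL/6J, and their background is therefore not settled. Mice with the neuronal deletion but without the transgenes were not analysed here.

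The SREBPs are transcription factors made as membrane proteins of the endoplasmic reticulum. When sterol is plentiful, the Insig proteins hold the escort protein Scap, and with it the SREBP, in the endoplasmic reticulum. When sterol is short, Scap carries the SREBP to the Golgi, where the proteases encoded by Mbtps1 (site-1 protease) and then Mbtps2 (site-2 protease) release its active part to the nucleus. SREBP-2, from Srebf2, acts mainly on cholesterol synthesis, and SREBP-1, from Srebf1, mainly on fatty acid synthesis. Insig1, Stard4 and Srebf2 itself are known targets of the pathway. The brain makes its cholesterol locally, since lipoproteins of the blood do not cross the blood-brain barrier, and farnesyl pyrophosphate, the lipid that FT attaches to proteins, is an intermediate of the same synthesis. These transcript levels do not show how much SREBP was cleaved.

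The promoters of Srebf2 and Insig1 are shown because both genes are targets of the factors they control. Each window runs from 250 bases before to 50 bases after the RefSeq start site (GRCm38.p6) and is written 5′ to 3′ along the gene. That of Srebf2 lies at chr15:82147019-82147318 on the plus strand and that of Insig1 at chr5:28071162-28071461 on the plus strand.
Srebf2: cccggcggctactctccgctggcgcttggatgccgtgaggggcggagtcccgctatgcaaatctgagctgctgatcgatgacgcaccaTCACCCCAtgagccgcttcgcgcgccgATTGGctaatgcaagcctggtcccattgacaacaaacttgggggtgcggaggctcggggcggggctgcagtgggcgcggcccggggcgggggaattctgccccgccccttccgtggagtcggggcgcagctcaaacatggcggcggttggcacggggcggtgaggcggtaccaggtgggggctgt
Insig1: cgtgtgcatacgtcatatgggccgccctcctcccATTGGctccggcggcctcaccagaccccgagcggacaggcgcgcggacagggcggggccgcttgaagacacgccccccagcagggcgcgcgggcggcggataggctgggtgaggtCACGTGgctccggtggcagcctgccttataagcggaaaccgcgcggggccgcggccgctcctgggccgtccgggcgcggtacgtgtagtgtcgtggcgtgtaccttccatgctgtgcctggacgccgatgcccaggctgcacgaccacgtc
Capitals mark matches, on either strand, to the inverted CCAAT box ATTGG, the E-box CACGTG and a short form of the sterol regulatory element, TCACNCCA. The short form was chosen after the sequences had been seen. Windows of 32851 promoters were searched in the same way. The Srebf2 window held the short element at -162 and ATTGG at -135 relative to the start site, and 4.36% and 37.4% of all windows held these letters. In the Insig1 window ATTGG lay at -216 and CACGTG at -101, and 7.15% of all windows held the E-box. The longer element TCACNCCAC, which contains the short one, was in 1.24% of all windows and in none of the windows of the 7 genes with an entry in the table. The GC box GGGCGG, left in lower case, matched 5 times in the Srebf2 and 3 times in the Insig1 window, and 35.7% of all windows held it. A match gives letters only, and binding was not measured.

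WT mouse 19622 lay apart from the rest, as the study's methods also note for 1 WT sample. Its distance to the other 17 mice, a typical log2 fold change of the 500 genes that differ most in a pair, was 4.14 to 4.44, while pairs of the other 17 were 1.42 to 2.70 apart. Counts were scaled to CPM, a count relative to the TMM-adjusted total of its library, and the summed CPM of 8 cerebellar markers was 3182 in this mouse and 50.7 to 123.7 in the others. Of the 8 genes, 6 lay outside the range of the other 17 mice in 19622. Srebf2, at 179.3 CPM, and Scap, at 85.6 CPM, lay below that range, and Insig2, Mbtps1, Mbtps2 and Stard4, at 68.1 CPM for the last, lay above it. The results below are for the other 17 mice (6 APP/PS1, 6 APP/PS1/FTnKO and 5 WT) unless 19622 is named. Total counts were 15925432 to 21030935 per mouse. The RNA integrity number (RIN) ran from 8.5 to 8.8 among WT mice, from 7.7 to 8.7 among APP/PS1 mice and from 7.6 to 8.7 among the knockouts. Fntb, the floxed gene, reached 14.1 to 32.2 CPM among WT mice, 14.2 to 32.1 CPM among APP/PS1 mice and 7.84 to 14.7 CPM among APP/PS1/FTnKO mice. Transcripts of the frontal cortex come from all of its cell types, and fewer cells of a type and less RNA per cell cannot be told apart in such data.

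To compare levels between the genes, the CPM were divided by the exon length of each gene (RPKM). Srebf2 was the most abundant with 39.1 ± 2.52 RPKM (SD, n = 17 mice), and Insig1 followed with 20.8 ± 2.41 RPKM. The related Insig2 reached 11.4 ± 0.714 RPKM. Srebf1 and Scap had nearly the same level, 13.8 ± 2.16 and 13.8 ± 0.631 RPKM, and Srebf1 was the higher of the pair in 8 of 17 mice, so their order is not resolved on this length. Mbtps1 was at 10.2 ± 0.642 RPKM, below Insig2 in 15 of 17 mice. Stard4 was at 7.48 ± 1.36 RPKM, below Mbtps1 in 16 of 17 mice. Mbtps2, the X-linked gene of the second protease, was the lowest with 2.72 ± 0.224 RPKM. The remaining neighbours in the order, Srebf2 over Insig1, Insig1 over Srebf1, Scap over Insig2 and Stard4 over Mbtps2, kept their order in 17 of 17 mice. Srebf1 and Stard4 varied most between mice and Scap least, as the spread of the points in the plot of levels shows. In 19622 the level of Srebf2 was 25.0 RPKM, below the range of the other mice.

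**Figure D1:**
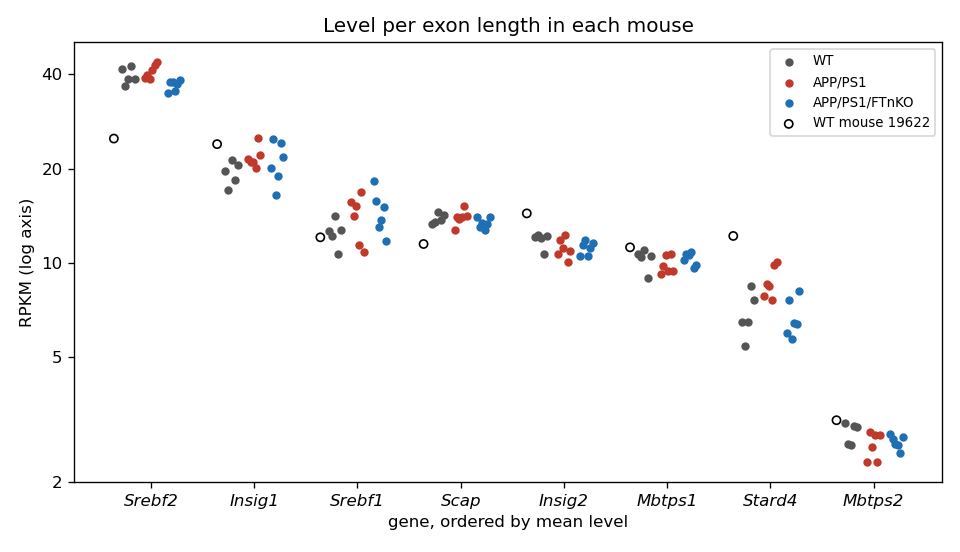
Level of each gene in RPKM on a log axis, 1 point per mouse, coloured by genotype, with WT mouse 19622 as an open circle. Srebf2 lies between 35.0 and 43.7 RPKM in 17 mice, and Mbtps2 between 2.31 and 3.09 RPKM.

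Exons of 3 of the genes overlap those of another gene in the GRCm38 annotation (GENCODE vM21). Srebf1 (chr11:60199089-60222581, minus strand) shares 109 bases with Rai1 on the opposite strand, which had 1735 to 2446 counts per mouse beside 1042 to 1765 for Srebf1, and 66 bases with Mir6922 on its own strand, which had 0 counts. Since no source used here gives the strand setting of the counting, reads in those 109 bases cannot be assigned with certainty. Scap (chr9:110333288-110384950, plus strand) shares 985 bases with 5830462I19Rik on the opposite strand, which had 0 to 1 counts. Whether reads there were counted for Scap depends on the same setting. If they were not and those bases are left out of the length, the mean level of Scap is 15.9 RPKM. This is above the 14.0 RPKM of Srebf1 without the bases shared with Rai1. Yy2 lies within Mbtps2 (chrX:157535371-157598715, minus strand) on the same strand, shares 2867 bases with its exons and had 0 counts in every mouse. If the shared bases are left out of the length, the mean level of Mbtps2 is 3.80 RPKM in place of 2.72 RPKM, still the lowest of the 8 genes. Srebf2 (chr15:82147181-82205379, plus), Insig1 (chr5:28071363-28078662, plus), Insig2 (chr1:121304353-121332589, minus), Mbtps1 (chr8:119508156-119558735, minus) and Stard4 (chr18:33199355-33213862, minus) share no exon bases with other genes there.

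The comparison of APP/PS1/FTnKO with APP/PS1 mice asks what loss of neuronal FT does in the presence of the transgenes. Stard4 and Srebf2 had the largest differences of the 8 genes, both lower in the knockout, while the retention, escort and protease genes lay within 5% of the APP/PS1 mean. No gene of the machinery passed the threshold of an adjusted p of 0.05. By edgeR's quasi-likelihood test, adjusted over all 17414 genes, 0 of 8 were called, beside 57 genes or 0.327% of all genes. By DESeq2 0 of 8 were called as well, beside 1.38% of all genes. At an unadjusted p below 0.05 in edgeR 2 of 8 passed, Stard4 and Srebf2, beside 11.5% of all genes. The median log2 fold change was -0.02 for the 8 genes and -0.0016 for all genes.

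Stard4 was at 31.9, 33.5, 35.7, 35.9, 42.7 and 45.3 CPM in the 6 APP/PS1/FTnKO mice and at 42.6, 43.7, 47.2, 48.0, 55.0 and 56.2 CPM in the 6 APP/PS1 mice. The groups overlapped narrowly, with 4 of 6 knockout mice below every APP/PS1 mouse. The means were 37.5 ± 5.30 and 48.8 ± 5.68 CPM (SD, n = 6 each), and the log2 fold change was -0.38 (SE 0.108, 95% confidence interval -0.61 to -0.15). Its adjusted p was 0.155 in edgeR and 0.0527 in DESeq2, and an exact two-sided permutation test on the gene alone gave p = 0.0108 over 924 relabellings. This transcript therefore missed the threshold in both tools when all genes were taken into account. DESeq2 on only the 2 genotypes compared, a setting chosen after the data were seen, gave -0.39 with an adjusted p of 0.0118, and edgeR without the filter gave an adjusted p of 0.0496. With each mouse left out in turn, the log2 fold change stayed between -0.44 and -0.33 and the adjusted p in edgeR between 0.112 and 0.275.

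Srebf2 was at 251.4, 254.8, 267.7, 270.9, 271.4 and 275.5 CPM in APP/PS1/FTnKO mice and at 277.8, 279.0, 286.9, 297.7, 307.3 and 313.9 CPM in APP/PS1 mice. All 6 knockout mice lay below all 6 APP/PS1 mice, as did 65 of all genes tested, 0.373%. The separation depended on the scaling, since the groups overlapped when CPM were computed from unscaled total counts. The difference was small: 265.3 ± 9.82 against 293.8 ± 15.0 CPM (SD, n = 6 each), which on the log2 scale is -0.15 (SE 0.0465, 95% confidence interval -0.24 to -0.05). The adjusted p was 0.218 in edgeR and 0.0894 in DESeq2. The exact two-sided permutation p of the gene alone was 0.00216, the smallest that 924 relabellings can give. With RIN as a covariate the log2 fold change was -0.17 with an adjusted p of 0.0494 in edgeR.

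**Figure D2:**
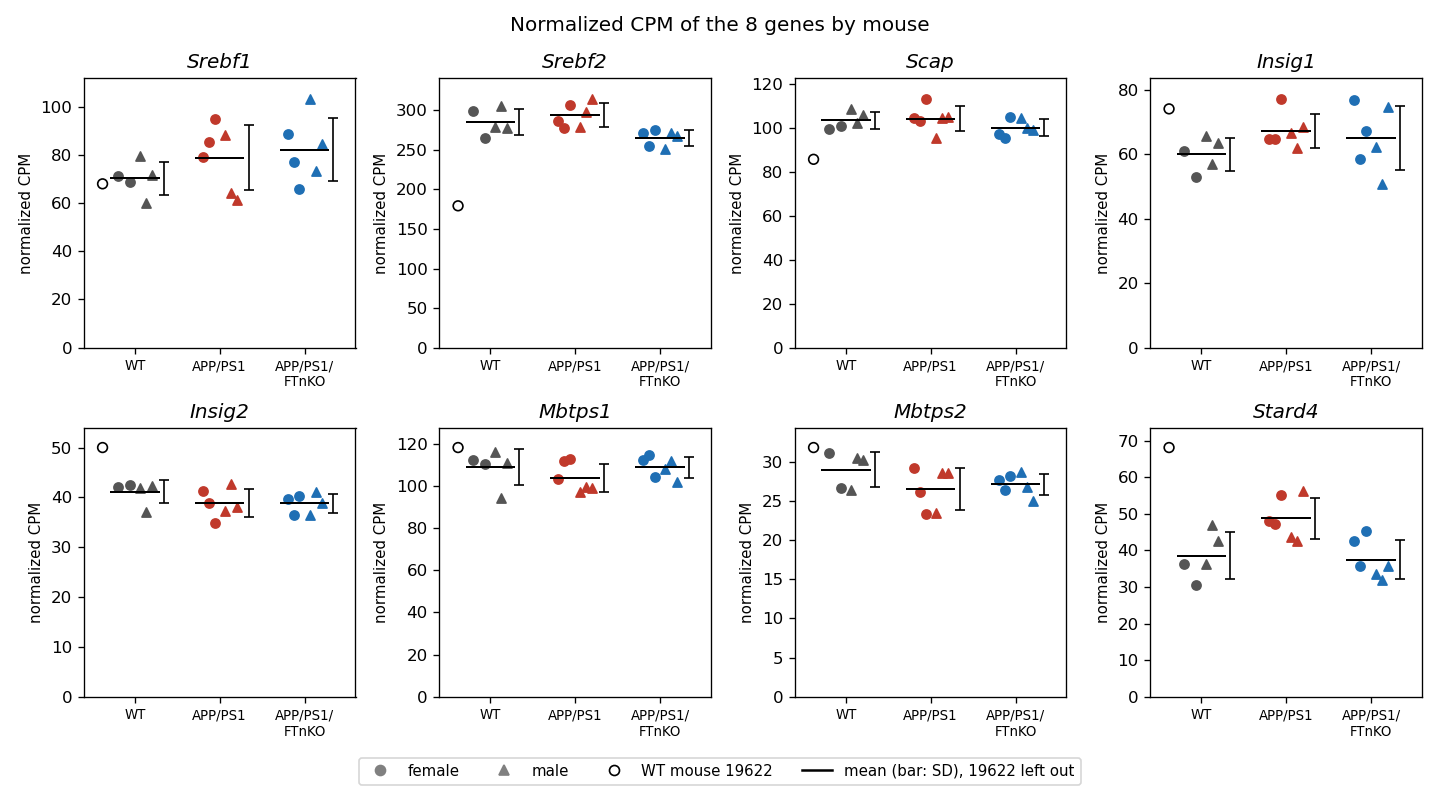
Normalized CPM of each gene, with an axis from 0, 1 point per mouse by genotype. Bars are the mean and the SD, circles are females and triangles males, and the open circle is WT mouse 19622, left out of the mean. All 6 APP/PS1/FTnKO mice lie below the APP/PS1 mice for Srebf2, and Stard4 has its highest group mean, 48.8 CPM, in APP/PS1 mice.

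Scap, the escort, differed by -0.06 on the log2 scale (95% confidence interval -0.15 to 0.03). The Insig genes, whose products retain the complex, differed by -0.05 for Insig1 (interval -0.24 to 0.14) and by 0.0008 for Insig2 (interval -0.12 to 0.12). Of the proteases, Mbtps1 differed by 0.07 (interval -0.04 to 0.17) and Mbtps2 by 0.03 (interval -0.11 to 0.18). Srebf1 differed by 0.06, with the widest interval of the 8 genes, -0.18 to 0.30, by 0.16 with RIN as a covariate and by -0.02 without knockout mouse 16974. For these 6 genes the intervals included 0, which does not show that the genotypes were alike. The 6 values of Insig1 ran from 50.9 to 77.0 CPM among the knockouts and from 62.1 to 77.3 CPM among APP/PS1 mice.

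Cell markers and RIN of the genotypes compared are given beside these differences. The summed CPM of 6 neuronal markers was 4583 to 5400 in APP/PS1/FTnKO and 5124 to 6668 in APP/PS1 mice, with 5 of 6 markers lower and none called by edgeR. The 6 microglial markers summed to 353.5 to 584.7 CPM in the knockout and 448.8 to 766.7 CPM in APP/PS1 mice, with 6 of 6 lower and none called. The 6 oligodendrocyte markers summed to 4722 to 7518 and 3369 to 6934 CPM, with 4 of 6 higher and none called. The median RIN was 8.6 in the knockout and 8.2 in APP/PS1 mice. Their part in the differences of Stard4 and Srebf2 was not tested, apart from the fit with RIN as a covariate.

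In APP/PS1 against WT mice, which asks what the transgenes do, Stard4 again had the largest difference, this time higher in APP/PS1 mice. By edgeR 0 of 8 genes were called, beside 1.50% of all genes, and by DESeq2 0 of 8, beside 2.19%. At an unadjusted p below 0.05 in edgeR only Stard4 passed, beside 14.0% of all genes. The median log2 fold change was 0.03 for the 8 genes and -0.0023 for all genes. Stard4 was at 30.4, 36.3, 36.3, 42.6 and 47.0 CPM in the 5 WT mice, so that 4 of 6 APP/PS1 mice lay above every WT mouse. The means were 48.8 ± 5.68 and 38.6 ± 6.41 CPM (SD, n = 6 and 5), and the log2 fold change was 0.33 (SE 0.115, 95% confidence interval 0.09 to 0.57, adjusted p = 0.199 in edgeR and 0.142 in DESeq2). An exact two-sided permutation test over 462 relabellings gave p = 0.0195. With mouse 19622 among the WT mice the log2 fold change was 0.17, since Stard4 was higher in 19622 than in any other mouse.

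Insig1, which is induced by SREBPs and feeds back on them, was at 52.9, 57.1, 61.0, 63.4 and 65.8 CPM in WT mice and at 62.1, 64.9, 64.9, 66.6, 68.4 and 77.3 CPM in APP/PS1 mice. The groups overlapped, and the log2 fold change was 0.16 (95% confidence interval -0.04 to 0.36, adjusted p = 0.454 in edgeR). The exact two-sided permutation p of Insig1 alone, not adjusted for other genes, was 0.0325 over 462 relabellings, and 0.04 when mice were relabelled within sex. Srebf1 also differed by 0.16 (interval -0.09 to 0.42), but with RIN as a covariate it differed by -0.07. Srebf2 differed by 0.04 (interval -0.06 to 0.15), and by 0.14 with mouse 19622 among the WT mice. The other 4 genes differed by 0.01 for Scap, -0.09 for Insig2, -0.08 for Mbtps1 and -0.13 for Mbtps2, and every one of these intervals included 0. The microglial markers, by contrast, summed to 332.9 to 372.4 CPM in WT mice, and 4 of 6 were called higher in APP/PS1 mice. The 6 astrocyte markers were all higher, with none called, and summed to 1163 to 1501 CPM against 1129 to 1233 CPM in WT mice. Their part in the differences of Stard4 and Insig1 was not tested.

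In APP/PS1/FTnKO against WT mice, which differ by the transgenes and the knockout, Stard4 had nearly the same mean in both groups. By edgeR 0 of 8 genes were called, beside 3.87% of all genes, by DESeq2 0 of 8, beside 7.63%, and at an unadjusted p below 0.05 in edgeR 0 of 8, beside 22.1%. The median log2 fold change was -0.05 for the 8 genes and 0.0053 for all genes. The mean of Stard4 was 37.5 CPM in the knockout and 38.6 CPM in WT mice, a log2 fold change of -0.05 (95% confidence interval -0.29 to 0.19). With 19622 it was -0.22. Srebf2 differed by -0.10 (interval -0.21 to 0.0005, adjusted p = 0.228 in edgeR), with all 6 knockout mice below the WT median, and by -0.0053 with 19622. Its exact two-sided permutation p, for this gene alone, was 0.0433, and 0.055 within sex. Srebf1 differed by 0.22 (interval -0.03 to 0.48, adjusted p = 0.29 in edgeR), by 0.08 with RIN as a covariate and by 0.13 without APP/PS1/FTnKO mouse 16974. Its values were 66.1, 73.5, 77.3, 84.7, 88.7 and 103.3 CPM in the knockout and 60.0, 68.7, 71.5, 71.6 and 79.6 CPM in WT mice, which overlap. Beside this, 6 of 6 neuronal markers were lower in the knockout with 1 called, and 5 of 6 microglial markers were higher with 2 called, and their part in the difference of Srebf1 was not tested. This comparison and the one before share the WT mice, and APP/PS1 mice enter both of the first comparisons, so the opposite signs of Stard4 in those are not independent of each other.

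**Figure D3:**
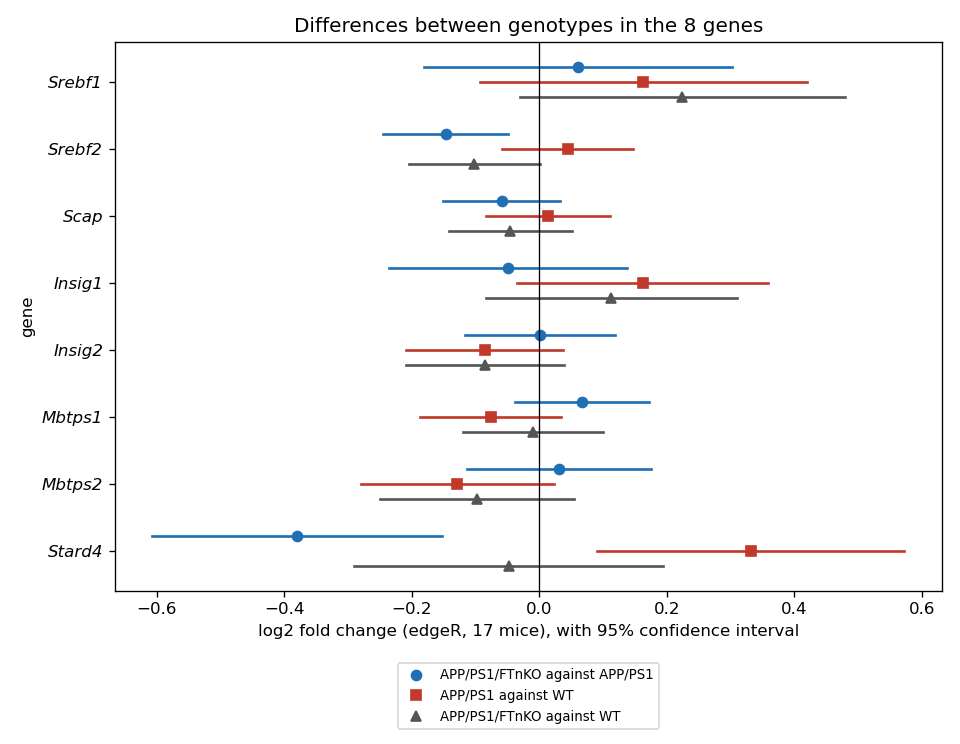
Log2 fold change of each gene with its 95% confidence interval from edgeR in 17 mice, for the 3 comparisons of genotypes. The interval of Stard4 is -0.61 to -0.15 where the knockout is compared with APP/PS1 mice, 0.09 to 0.57 where APP/PS1 is compared with WT, and that of Srebf2 is -0.24 to -0.05 in the first of these.

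No difference between females and males was called in these genes. By edgeR 0 of 8 genes were called between the sexes, beside 0.0689% of all genes (12 genes), and at an unadjusted p below 0.05 also 0 of 8, beside 6.70%. The largest difference was that of Mbtps1, 0.08 higher in females on the log2 scale (95% confidence interval -0.0037 to 0.17), and the X-linked Mbtps2 differed by -0.0027 (interval -0.12 to 0.12). A term for sex by genotype called no gene at all in edgeR in any of the 3 comparisons, 0% of all genes in each. The largest of these terms in the 8 genes were 0.62 (SE 0.189) for Stard4 in APP/PS1/FTnKO against WT, -0.45 (SE 0.216) for Srebf1 between the knockout and APP/PS1 mice and 0.41 (SE 0.188) for Stard4 in APP/PS1 against WT, all with an adjusted p of 1. At an unadjusted p below 0.05 only both terms of Stard4 passed, beside 1.79% and 4.05% of all genes, and the term of Srebf1 did not. In males Stard4 was at 33.7 ± 1.89 CPM in the knockout and 42.0 ± 5.38 CPM in WT (SD, n = 3 each), and in females at 41.3 ± 4.87 CPM (n = 3) and 33.4 ± 4.16 CPM (n = 2). APP/PS1/FTnKO females and males both lay below APP/PS1 mice of their sex in mean, at 50.1 ± 4.32 and 47.5 ± 7.56 CPM for the latter (SD, n = 3 each).

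Genes around the machinery were taken from 5 lists, and the counts of called genes are those of edgeR in 17 mice unless another tool is named. For APP/PS1/FTnKO against APP/PS1, 18 of 20 cholesterol synthesis enzymes were lower, with a median log2 fold change of -0.18, beside -0.0016 for all genes. Fdps, counted among the lower enzymes, was at only 1.513 CPM in the knockout and 1.635 CPM in APP/PS1 mice. Its log2 fold change was -0.11 (SE 0.255), so its sign is not resolved. Fdft1, the squalene synthase that uses farnesyl pyrophosphate, was the only enzyme called, 1 of 20 beside 0.327% of all genes, with a log2 fold change of -0.29 (SE 0.0593, adjusted p = 0.0471). DESeq2 called 6 of the 20, all lower, beside 1.38% of all genes. With RIN as a covariate edgeR called 5, beside 261 over all genes, and without the filter 4, beside 104. The main fit called 57 over all genes. No enzyme was called with RLE scaling, with all 18 mice by either tool, on only the genotypes compared in edgeR, or in 14 of the 17 fits that left out 1 mouse. Stard4, at -0.38, was further down than the median enzyme and Srebf2, at -0.15, lay near it. Among 21 regulators of SREBP retention, degradation and activity with counts, Rnf145 fell by 0.27 on the log2 scale (SE 0.054, adjusted p = 0.0411). RNF145 is a sterol-responsive ubiquitin ligase that acts on Scap. The remaining 20 regulators were not called. The call of Rnf145 was lost in edgeR with all 18 mice, on only the genotypes compared and in 15 of the 17 fits that left out 1 mouse. A further list held 24 genes of sterol or lipid handling, called transfer genes here, and not all of them are carriers of sterol. No gene of 17 lipogenic targets, these 24 transfer genes or 11 genes of LXR, the nuclear receptor that senses oxysterols, was called by edgeR. Those with the smallest p were Acaca (-0.23, adjusted p = 0.0567) and Me1 (-0.29, adjusted p = 0.06) of the lipogenic genes, Stard10 (-0.26, adjusted p = 0.0662) and Lipa (-0.21, adjusted p = 0.196) of the transfer genes, and Arl4c (0.19, adjusted p = 0.219) and Nr1h2 (0.11, adjusted p = 0.581) of the LXR genes. DESeq2 called Acaca, Me1 and Stard10 (adjusted p = 0.00358, 0.00516 and 0.00504) and no LXR gene. With RIN as a covariate edgeR called 2 lipogenic targets, in the fit that called 261 over all genes. In this comparison 6 of 6 microglial markers were lower with a median of -0.255, none called, and 5 of 6 neuronal markers were lower with a median of -0.0484. Their part in the differences of the listed genes was not tested.

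In APP/PS1 against WT mice 17 of 20 enzymes were higher, with a median of 0.14 beside -0.0023 for all genes. Nsdhl, a sterol dehydrogenase, rose by 0.35 (SE 0.0635, adjusted p = 0.00664) and Fdft1 by 0.32 (SE 0.0628, adjusted p = 0.0114), and DESeq2 called 4 of 20 enzymes, all higher, beside 2.19% of all genes (edgeR 2 of 20, beside 1.50%), while 1 was called with RIN as a covariate and 1 without WT mouse 19053. Of the lipogenic targets Fads2, a fatty acid desaturase, rose by 0.36 (adjusted p = 0.0404 in edgeR). DESeq2 called 3 of the 17, all higher (Fads2, Elovl5 and Gpam). Without the filter edgeR called as many, beside 452 over all genes. No lipogenic target was called by edgeR with RIN as a covariate or in 9 of the 17 fits that left out 1 mouse. Among the transfer genes Npc2, which carries cholesterol out of lysosomes, rose by 0.64 (adjusted p = 0.0213), although no transfer gene was called with all 18 mice in edgeR, with RIN as a covariate or in 5 of the 17 fits that left out 1 mouse. The difference of Stard4 was 0.33 without passing the test. No regulator and no LXR gene was called. Ep300 (-0.21, adjusted p = 0.234) and Tmed10 (0.09, adjusted p = 0.281) had the smallest p of the regulators, and Nr1h3 (0.42, adjusted p = 0.287) and Lpcat3 (0.19, adjusted p = 0.413) of the LXR genes. Beside these differences, 6 of 6 microglial markers were higher in APP/PS1 mice, 4 of them called, and their log2 fold changes had a median of 0.591, while 6 of 6 astrocyte markers were higher with a median of 0.155, none called. Their part in the rise of Npc2 and in the differences of the enzymes and lipogenic targets was not tested.

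In APP/PS1/FTnKO against WT mice the enzymes had a median of -0.05, with 8 of 20 higher. Tm7sf2, a sterol reductase, rose by 0.44 (adjusted p = 0.00279). Rnf145 fell by 0.31 (SE 0.0567, adjusted p = 0.00759). The transfer genes Stard10, Osbp2 and Osbpl1a fell by 0.28, 0.22 and 0.25 (adjusted p = 0.0176, 0.0396 and 0.0464). These were 3 of 24, beside 3.87% of all genes. DESeq2 called 7 of 24, 2 higher and 5 lower, beside 7.63%, while edgeR called 1 with all 18 mice, 1 with RIN as a covariate, and 0 to 5 with a mouse left out, the 0 without WT mouse 19053. No lipogenic or LXR gene was called by edgeR, while DESeq2 called Fasn (adjusted p = 0.0313), and those with the smallest p were Fasn (-0.23, adjusted p = 0.0756), Lpin1 (0.15, adjusted p = 0.136), Arl4c (0.19, adjusted p = 0.0951) and Nr1h2 (0.13, adjusted p = 0.265). The median log2 fold change was -0.152 for the neuronal markers, 0.154 for the astrocyte markers, all 6 of them higher, and 0.391 for the microglial markers, and their part in the differences of the listed genes was not tested.

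**Figure D4:**
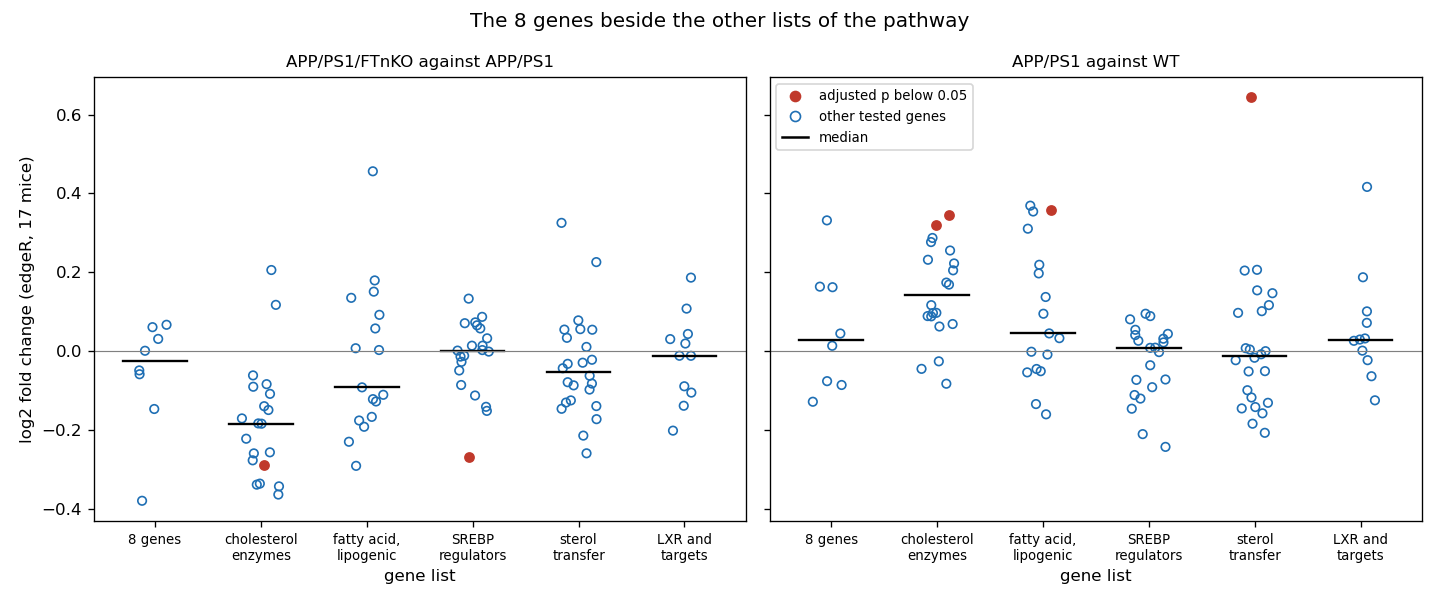
Log2 fold change of the 8 genes and of each tested gene of the 5 lists, with the knockout compared with APP/PS1 mice on the left and APP/PS1 compared with WT mice on the right. Filled points have an adjusted p below 0.05 in edgeR and lines are medians. The enzymes have a median of -0.18 on the left and 0.14 on the right, and none of the 8 genes is filled.

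Covariation between mice was described on log2 CPM after the means of genotype and sex had been removed, so that differences between the genotypes do not enter. The permutations shuffled the residuals freely and did not allow for the means removed, so their p are somewhat too small. With 28 pairs of the 8 genes, no correlation over the 17 mice passed the adjustment for the number of pairs. The closest pair by Pearson r, though not by Spearman rho, was Srebf2 and Stard4. It had r = 0.66 (permutation p = 0.00449, adjusted p = 0.126) and rho = 0.61 (permutation p = 0.011, adjusted p = 0.154), and r = 0.55 without the 2 mice farthest from the median of Srebf2. Insig1 and Stard4 followed with r = 0.55 (permutation p = 0.0228, adjusted p = 0.296) and rho = 0.62 (permutation p = 0.00987, adjusted p = 0.154), and r = 0.44 without 2 mice. Srebf1 and Srebf2, which encode the pair of SREBPs, had r = -0.50 (permutation p = 0.044, adjusted p = 0.296) and rho = -0.47 (permutation p = 0.0613, adjusted p = 0.429), and r = -0.31 without 2 mice.

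The genes differed in how they went with the 20 cholesterol enzymes across the same mice, given here as a description, since all values of a mouse share its library. Stard4 had a median r of 0.58 with the enzymes and was positive with 18 of 20, the highest being Sqle at r = 0.89. Srebf2 had a median of 0.41, positive with 17 of 20, and Insig1 a median of 0.41, positive with 19 of 20. Insig2 went the other way, with a median of -0.40 and a positive r with 1 of 20 enzymes. The medians of Srebf1, Scap, Mbtps1 and Mbtps2 were 0.09, 0.14, -0.20 and -0.03, and the median r with all genes was between -0.02 and 0.04 for every one of the 8.

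Among the other 17406 tested genes, the most alike to Stard4 over the 17 mice was Sqle (rho = 0.86), an enzyme of cholesterol synthesis, followed by Cryl1 (r = 0.87) and Hacd1 (r = 0.87). Those most alike to Srebf2 were Eid2b (r = 0.91), St6galnac5 (r = 0.90) and M5C1000I18Rik (r = 0.89), and to Srebf1 Eef1a1 (r = 0.97), Agmo (r = 0.95) and Serpine2 (r = 0.94). For Insig1 they were Procr (r = 0.91), Slc40a1 (r = 0.87) and 2700054A10Rik (r = 0.86), and for Insig2 Jmy (r = 0.81), Impg2 (r = 0.79) and Taf7 (r = 0.79). Scap was closest to Tmem9 (r = 0.87), Itm2c (r = 0.82) and Mhrt (r = 0.80). The proteases were closest to Prima1 (r = 0.87), Depp1 (r = 0.86) and Scube3 (r = 0.85) for Mbtps1, and to Mkln1 (r = 0.88), G3bp1 (r = 0.88) and Ctdspl2 (r = 0.86) for Mbtps2.

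Srebf1 was related to the cell markers and the RNA quality of a mouse. Over 56 relations of the 8 genes with 6 marker sums and RIN in the 17 mice, Srebf1 had r = -0.86 with the neuronal markers (rho = -0.88, adjusted permutation p = 0.00112 and 0.00056) and r = -0.87 without the 2 farthest mice. Its r with the astrocyte markers was 0.81 (rho = 0.86, adjusted permutation p = 0.00196 and 0.00084), and 0.89 without 2 mice. With RIN the r was -0.78 (rho = -0.77, adjusted permutation p = 0.00213 and 0.00476), and -0.68 without the 2 farthest mice. Its microglial, oligodendrocyte and endothelial relations were also past the adjustment, at r = 0.73, 0.81 and 0.73 (rho = 0.80, 0.72 and 0.80), with a largest adjusted permutation p of 0.0114. Srebf1 was thus higher in mice with lower neuronal markers and lower RIN, within genotype and sex. Srebf2 went the other way, with r = -0.80 for the oligodendrocyte markers (rho = -0.84, adjusted permutation p = 0.00196 and 0.000933), and -0.76 without 2 mice. Insig1 had r = 0.75 with the endothelial markers (rho = 0.69, adjusted permutation p = 0.00485 and 0.02), and 0.68 without 2 mice. For Stard4 the r with the oligodendrocyte markers was -0.59, past the adjustment for r (adjusted permutation p = 0.0492) but not for rho (-0.50, 0.146). The same held for Srebf2 with the neuronal markers (r = 0.63, adjusted permutation p = 0.0278, rho = 0.60, 0.0631) and RIN (r = 0.59, 0.0465, rho = 0.51, 0.146), the latter r being 0.42 without 2 mice. It also held for Insig1 with the astrocyte markers (r = 0.67), Mbtps1 with the neuronal markers (r = -0.68) and Srebf1 with the cerebellar markers (r = 0.64), whose adjusted permutation p for rho were 0.0631, 0.16 and 0.0579. Scap, Insig2 and Mbtps2 had no relation past the adjustment. Since the permutations did not allow for the means removed, relations with an adjusted permutation p close to 0.05, as for Stard4, are not firm. What sets these relations was not tested.

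**Figure D5:**
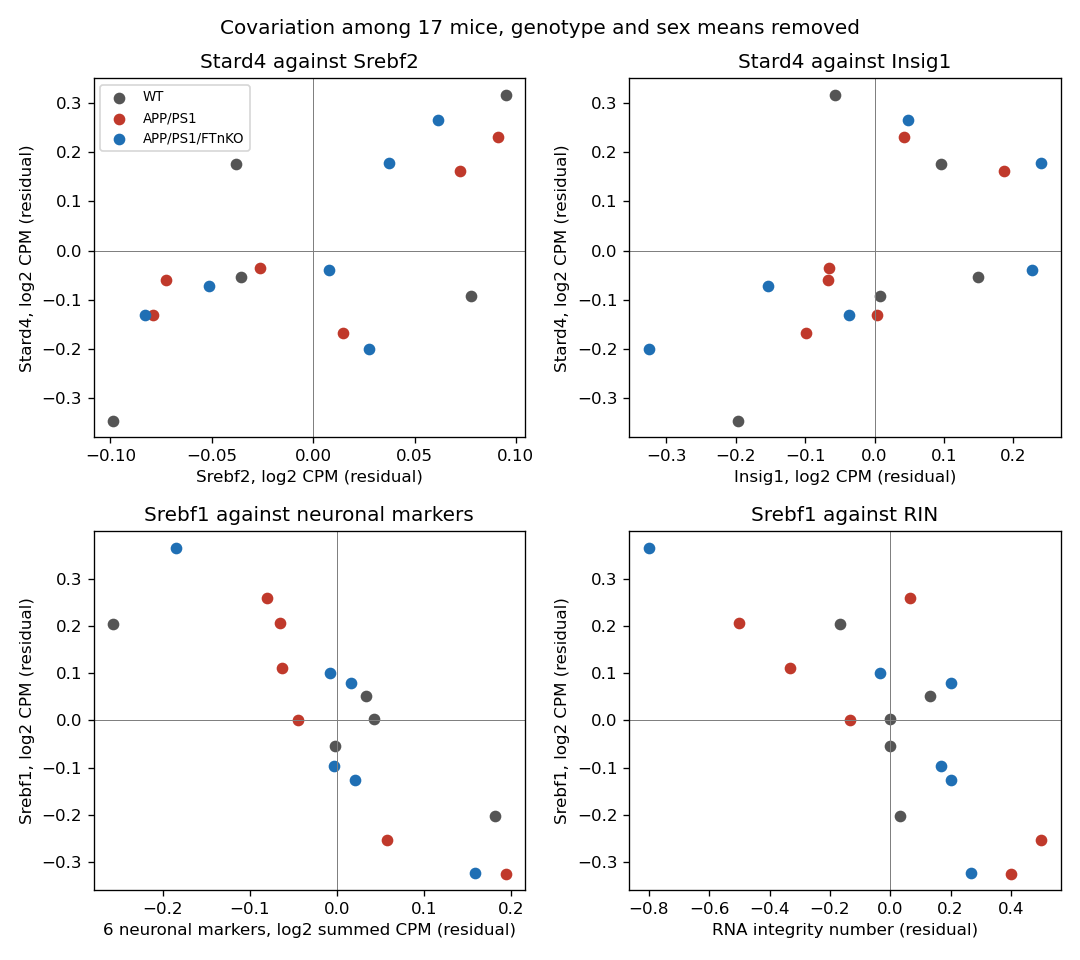
Residual log2 CPM in 17 mice, 1 point per mouse, after the means of genotype and sex were removed: Stard4 against Srebf2 (r = 0.66), Stard4 against Insig1 (r = 0.55), Srebf1 against the log2 of the summed CPM of 6 neuronal markers (r = -0.86) and Srebf1 against RIN (r = -0.78). Colours give the genotype, and every genotype is centred at 0 by construction.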

How the data were processed

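Frontal cortex mRNA of 18 mice was sequenced by the authors on stranded libraries. Trimmomatic 0.33 was used by the authors for trimming, HISAT2 2.1.0 for alignment to GRCm38 and featureCounts for counting per gene, per the methods and the submitters' processing notes, which also name FastQC 0.11.7. The deposited table holds raw, unnormalized counts for each Ensembl gene and mouse, and 0 columns were unused. The version of featureCounts and its strand, multi-mapping and annotation settings are stated in none of the sources used here.

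Tests used edgeR 4.0.16 in R 4.3.3: TMM scaling, filterByExpr by genotype (minimum count 10), a quasi-likelihood F test with sex as an additive term, 3 genotypes in 1 fit, Benjamini-Hochberg adjustment over 17414 genes and a threshold of 0.05. WT mouse 19622 was left out of the fit, as the study's methods leave out 1 WT sample. DESeq2 1.42.0 was the main alternative. Others were all 18 mice, RLE scaling, no filter, a minimum count of 50, RIN as a covariate, a fit of the compared genotypes alone and each mouse left out. DESeq2 on 18 mice or on only the genotypes compared was added after the data were seen. Single genes were tested by exact permutation of genotypes, and correlations by 100000 permutations. RPKM used exon lengths of GENCODE vM21, which held 99.4% of the genes. Promoters came from RefSeq (GRCm38.p6), with motifs searched on both strands. Counts of 377 to 6104 per gene and mouse keep the counting error small. On simulated APP/PS1/FTnKO and APP/PS1 counts of 17414 genes, edgeR recovered 83% of changes of 1 log2 unit, 62% of 0.5 and 30% of 0.3, with 5.84% of its calls false, and DESeq2 81%, 70% and 40% with 18.6% false.

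The 8 genes, the 5 lists and the marker lists were chosen with earlier results of these data known. Genes named are the 8, the 3 genes most correlated with each, and, of each list, the called genes or otherwise the 2 of smallest p. Of 22 regulators listed, 21 were in the table. Some items are not reported here.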

Additional observations from a re-analysis of the deposited data

Results flagged for a closer look

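The values below were picked out because 1 mouse lay far from the rest of its genotype by Dixon's test on normalized CPM. Over the 32 groups examined 4 were picked out, and chance does so for about 1 group in 20. Srebf2 was at 179.3 CPM in WT mouse 19622, while the next lowest of the 6 WT mice was at 264.2 CPM. The remaining ones concern WT mouse 19718. Insig2 was at 37.03 CPM in this mouse, and the other WT mice began at 41.88 CPM. Mbtps1 was at 94.2 CPM in it, with the next at 110.5 CPM, and at 94.74 against 110.4 CPM in the scaling that includes 19622.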

How the results depend on the processing

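Of 24 differences of single genes between genotypes, none was called in any setting except Stard4 and Srebf2 between the knockout and APP/PS1 mice. There 1 of 8 genes was called without the filter (Stard4), with RIN as a covariate (Srebf2) and by DESeq2 on only the genotypes compared (Stard4), and 0 with any mouse left out, here and in the other comparisons. Signs turned only in differences near 0 and in Srebf1: for APP/PS1/FTnKO against APP/PS1, Insig2 was 0.00079 and became -0.0015 with 18 mice, -0.0021 by DESeq2, -0.0010 by RLE, -0.017 with RIN, -0.0033 by DESeq2 with 18 mice and -0.0013 by DESeq2 on only the genotypes compared. Srebf1 in APP/PS1 against WT became -0.074 with RIN, and Mbtps1 in APP/PS1/FTnKO against WT 0.0014 with a minimum count of 50. With each mouse left out, signs turned in Srebf1 (-0.022 to 0.13), Insig1 (-0.10 to 0.015), Insig2 (-0.031 to 0.033) and Mbtps2 (-0.0054 to 0.062) between the knockout and APP/PS1 mice, in Scap (-0.012 to 0.043) for APP/PS1 against WT, and in Mbtps1 (-0.048 to 0.023) and Stard4 (-0.15 to 0.038) for APP/PS1/FTnKO against WT. The counts over all genes varied more. For APP/PS1/FTnKO against APP/PS1, 57 genes were called, and 2 with 18 mice, 244 by DESeq2, 104 without the filter, 261 with RIN, 5 on only the genotypes compared, 34 by DESeq2 with 18 mice, 152 by DESeq2 on only the genotypes compared and 10 to 81 with a mouse left out. For APP/PS1 against WT the 261 became 457 by DESeq2, 452 without the filter, 84 with RIN, 414 by DESeq2 with 18 mice, 478 by DESeq2 on only the genotypes compared and 124 to 465 with a mouse left out. For APP/PS1/FTnKO against WT the 674 became 261 with 18 mice, 1301 by DESeq2, 388 with RIN, 1607 by DESeq2 on only the genotypes compared and 206 to 987 with a mouse left out. The cause was not tested. No paired analysis was possible because the labels give no replicate numbers shared between genotypes.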
